A study of Mus musculus with 6 samples.

Results

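The structural myelin protein genes were read from hippocampal RNA-seq of WT mice and of TG mice that carry the G82R/L85P variant in Slc1a2. They were chosen by name, as the rows of the deposited table for Mbp, Mag, Mog, Mobp, Cnp, Cldn11, Mal, Opalin and Omg. All 9 were found among 54532 genes, and all 9 were among the 20952 genes tested. The measure was the FPKM, the reads of a gene scaled by its length and by the depth of the library, in 3 WT libraries (WT1 to WT3) and 3 TG libraries (TG1 to TG3). The TG mice were made by CRISPR/Cas9 on a C57BL/6N background with both changes in exon 3, and the WT mice were littermates. The label TG stands for this knock-in, so no transgene promoter was involved. Zygosity and age of the sequenced animals were not given in the sources used here. In each group the samples were labelled as separate mice. Values are given in the order WT1, WT2, WT3 and then TG1, TG2, TG3. The comparison asked whether the myelin genes differed between the genotypes.

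In the central nervous system, myelin is the multilayered membrane that oligodendrocytes wrap around axons. Mbp, Mobp and Mal act in compact myelin, where the membranes are held together. Cnp keeps cytoplasmic channels open in myelin, and Cldn11 forms tight junctions between its layers. Mag and Mog are immunoglobulin-like proteins of the innermost and the outermost myelin surface. Opalin is a glycoprotein of the paranodal and inner loops, and Omg is a lipid-anchored glycoprotein of oligodendrocytes and neurons that inhibits neurite outgrowth. Genes of this kind are switched on together when oligodendrocytes mature, under the transcription factors Sox10 and Myrf.

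In the means of 3 libraries, each of the 9 genes had a lower FPKM in TG mice than in WT mice, and none passed the test after adjustment over all genes. The difference was widest for Opalin, with a TG mean of 59.1% of the WT mean, and narrowest for Mbp, with 96.1%. The other 7 genes lay between 79.0% for Mal and 87.1% for Cnp. All 9 genes had their lowest value in the library TG1. In WT3, 8 of the 9 genes had the lowest WT value, the exception being Omg. In bulk tissue, fewer oligodendrocytes in the tissue taken and less RNA per oligodendrocyte cannot be told apart. For Omg, which neurons also make, the part of each cell type cannot be told apart either.

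The promoters of the members were read because Sox10 and Myrf act on genes of this kind, and because most members followed a common course over the libraries. A window of 250 bases before and 50 bases after the start of the transcript was read for 7 members in a table made from RefSeq (GRCm38.p6). Omg had no window there, and Mbp was left out of the search. The Myrf letters CTGGCAC and CTGGTAC and the SOX letters ACAAAG and ACAATG were searched on both strands, and no match to one overlapped a match to the other in the stretches shown. The Myrf letters were in the windows of 4 of the 7 members (Opalin, Mag, Mog and Cnp), against 7.10% of all 32851 windows. The SOX letters were in 4 of the 7 (Opalin, Mag, Cnp and Mobp), against 28.6% of all windows. In Mobp there were 6 matches, all CTTTGT, which is ACAAAG on the other strand. The TATA box letters TATAAA were in none of the 7, against 13.6% of all windows. The 250 bases before the start are shown for the 4 members with Myrf letters, and for Opalin also the bases 19 to 48 past the start, where its Myrf match lies. Capitals mark the Myrf and the SOX letters, on either strand, and each run is written 5′ to 3′ along the gene.
Opalin, chr19:41077114-41077363, minus strand: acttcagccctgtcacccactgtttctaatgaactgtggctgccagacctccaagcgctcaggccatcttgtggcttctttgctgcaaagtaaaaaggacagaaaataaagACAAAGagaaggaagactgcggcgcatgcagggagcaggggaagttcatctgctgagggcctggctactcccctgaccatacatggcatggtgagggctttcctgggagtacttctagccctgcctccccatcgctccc
Opalin past the start, chr19:41077066-41077095, minus strand: gggagACAAAGacctgcaGTGCCAGtgaga
Mag, chr7:30914864-30915113, minus strand: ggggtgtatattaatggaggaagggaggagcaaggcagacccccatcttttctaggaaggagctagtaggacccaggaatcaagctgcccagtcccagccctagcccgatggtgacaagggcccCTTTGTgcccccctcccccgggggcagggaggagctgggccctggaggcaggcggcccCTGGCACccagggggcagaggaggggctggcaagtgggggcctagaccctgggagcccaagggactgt
Mog, chr17:37023399-37023648, minus strand: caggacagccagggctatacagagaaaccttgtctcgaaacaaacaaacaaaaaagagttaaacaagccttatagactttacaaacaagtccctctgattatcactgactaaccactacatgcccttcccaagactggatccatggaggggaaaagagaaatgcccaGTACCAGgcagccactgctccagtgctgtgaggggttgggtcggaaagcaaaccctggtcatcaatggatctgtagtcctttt
Cnp, chr11:100574689-100574938, plus strand: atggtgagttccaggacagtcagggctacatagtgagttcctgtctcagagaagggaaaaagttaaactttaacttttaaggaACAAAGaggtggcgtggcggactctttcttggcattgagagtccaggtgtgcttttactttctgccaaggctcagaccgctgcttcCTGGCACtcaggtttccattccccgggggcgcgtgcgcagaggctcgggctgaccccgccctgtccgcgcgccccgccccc
In Opalin the Myrf match began at base 37 past the start. In Mag it began 68 bases before the start, in Cnp 81 and in Mog 83. These matches describe the letters of the genome and do not show binding. The genes with a match included Opalin, which had the widest difference between the groups, and Cnp, which had one of the smallest. Myrf itself was at 6.96, 7.54 and 4.95 FPKM in WT mice against 5.82, 6.83 and 7.22 in TG mice, and its groups overlapped (limma with Benjamini-Hochberg adjustment, log2 fold change 0.05, standard error 0.167, adjusted p = 0.950). Sox10 was at 18.0, 16.4 and 13.9 FPKM against 12.4, 15.2 and 15.2. The groups of Sox10 also overlapped.

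The libraries had between 16081281 and 18751057 reads on genes, as recovered from the FPKM and the gene lengths. For Slc1a2, the FPKM was 177 to 202 in WT mice and 207 to 222 in TG mice, and an FPKM cannot show the amino acid changes. Xist was at most 0.0181 and Ddx3y was 10.6 to 12.3 in all 6 libraries, so sex did not move with genotype. The choroid plexus genes, which mark the fluid-secreting epithelium of the ventricles, had a summed FPKM of 57.8 to 82.3 in the WT libraries and 66.0 in TG3, but 1214 in TG1 and 3840 in TG2. Their part in the results was not tested beyond the fits named here. Of the Schwann cell genes tested, 0 of 4 had an unadjusted p under 0.05 in limma.

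The most abundant member was Mbp (ENSMUSG00000041607, chromosome 18 from 82475146 to 82585637, GRCm38), which encodes the basic protein that joins the cytoplasmic faces of the membrane. Its FPKM stood at 288, 268 and 222 in WT mice against 196, 266 and 287 in TG mice. TG1 was lowest and TG3 lay at the level of WT1, so the groups overlapped widely. The means were 259.5 ± 34.0 and 249.5 ± 47.2 (SD, n = 3 each). The log2 fold change was -0.07 with a 95% interval from -0.46 to 0.32 (limma, adjusted p = 0.930), and without TG1 it was 0.10. Its counts ranged from 26107 to 44781 reads, so counting added under 0.619% to any value.

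Mobp (ENSMUSG00000032517, chromosome 9 from 120149707 to 120181484), another basic protein of compact myelin, stood at 111, 111 and 90.1 FPKM in WT mice against 66.4, 98.6 and 105 in TG mice. TG2 and TG3 lay inside the WT range and TG1 lay below it. Its means were 103.9 ± 11.9 and 90.1 ± 20.8 (SD, n = 3 each). The log2 fold change was -0.23 (limma, standard error 0.181, adjusted p = 0.789), and without TG1 it was -0.02. Mal (ENSMUSG00000027375, chromosome 2 from 127633226 to 127656695), a raft-associated membrane protein that helps to sort proteins to myelin, stood at 76.7, 76.1 and 66.6 FPKM against 45.4, 59.5 and 68.6. Of the TG libraries, TG3 alone reached the WT range. Its means were 73.1 ± 5.68 and 57.8 ± 11.7 (SD, n = 3 each), and the log2 fold change was -0.36 with a 95% interval from -0.71 to -0.0049. The unadjusted p of Mal was 0.0476 with limma and its adjusted p was 0.786. Without TG1 its log2 fold change was -0.19, and its unadjusted p was under 0.05 in 6 of 18 alternatives.

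Cnp (ENSMUSG00000006782, chromosome 11 from 100574904 to 100591729), which encodes an enzyme-like protein of uncompacted myelin, stood at 79.4, 74.4 and 65.9 FPKM in WT mice against 54.2, 65.5 and 71.6 in TG mice. TG1 lay well below the WT values, TG2 just below them and TG3 within them. The means were 73.2 ± 6.78 and 63.8 ± 8.82 (SD, n = 3 each), and the log2 fold change was -0.20 (limma, standard error 0.120, adjusted p = 0.789). At its end Cnp shares 154 exon bases, or 4.23% of its exon sequence, with Dnajc7 on the opposite strand, and the strand setting of the counting was not given. The tight junction gene Cldn11 (ENSMUSG00000037625, chromosome 3 from 31149920 to 31164324) stood at 58.5, 61.9 and 57.0 FPKM against 39.6, 53.8 and 54.7. Each TG value was below each WT value, by at least 2.24 FPKM, which is 3.93% of the lowest WT value. The counting error of the libraries next to this gap was 2.24% in WT3 and 2.33% in TG3. Its log2 fold change was -0.27 with a 95% interval from -0.57 to 0.03 (limma, adjusted p = 0.786). Without TG1 the log2 fold change was -0.09 for Cnp and -0.12 for Cldn11.

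Mag (ENSMUSG00000036634, chromosome 7 from 30899176 to 30914873), the sialic acid binding protein that faces the axon, stood at 29.8, 27.8 and 22.7 FPKM in WT mice against 16.7, 23.1 and 25.7 in TG mice. The groups overlapped, as WT3 lay below TG2 and TG3. Its means were 26.8 ± 3.67 and 21.9 ± 4.61 (SD, n = 3 each), and the log2 fold change was -0.30 (limma, standard error 0.172, adjusted p = 0.789). Mog (ENSMUSG00000076439, chromosome 17 from 37010743 to 37023398), found on the outermost lamella, stood at 26.9, 25.3 and 22.1 FPKM against 15.6, 21.6 and 22.0. Each TG value was below each WT value, but WT3 and TG3 differed by 0.0989 FPKM, or 0.447% of WT3. This gap is smaller than the counting error of 3.76% in WT3, and on recovered reads in limma-voom the groups of Mog overlapped. The means of Mog were 24.8 ± 2.43 and 19.7 ± 3.60 (SD, n = 3 each), with a log2 fold change of -0.34 and a 95% interval from -0.68 to 0.0020 (limma, adjusted p = 0.786). Without TG1 the log2 fold change was -0.12 for Mag and -0.18 for Mog.

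Opalin (ENSMUSG00000050121, chromosome 19 from 41062474 to 41077113) was the least abundant member, at 12.6, 11.1 and 8.83 FPKM in WT mice against 4.40, 7.47 and 7.38 in TG mice. No TG value reached the lowest WT value, and the gap between WT3 and TG2 was 1.37 FPKM, or 15.5% of WT3. It had 128 reads in TG1 (95% exact Poisson interval 107 to 152, counting error only) and up to 428 in WT1. The log2 fold change was -0.77 with a 95% interval from -1.30 to -0.25. With limma the unadjusted p was 0.00983, rank 205 of all genes tested, and the adjusted p was 0.786. Leaving out 1 library at a time gave log2 fold changes from -0.91 without WT3 to -0.53 without TG1.

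Omg (ENSMUSG00000049612, chromosome 11 from 79500982 to 79504084) lies inside Nf1, on the opposite strand, and shares no exon base with it. Its FPKM stood at 42.1, 41.8 and 50.6 in WT mice against 35.2, 37.8 and 37.4 in TG mice. Unlike the other 8 members, Omg was highest in WT3, and its TG libraries lay close together. Each TG value was below each WT value, with a gap of 3.93 FPKM between WT2 and TG2. The log2 fold change was -0.28 with a 95% interval from -0.49 to -0.07, and with limma the unadjusted p was 0.0167 and the adjusted p 0.786. Without WT3, the library in which it was highest, the log2 fold change was -0.19, and without TG1 it was -0.25 with an unadjusted limma p of 0.0543.

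**Figure D1:**
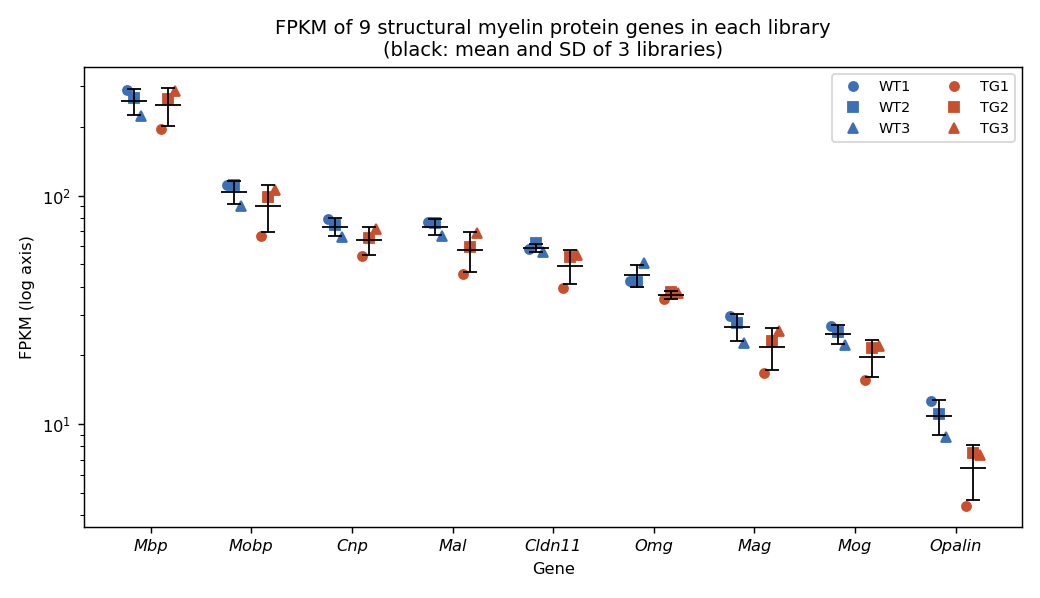
FPKM of the 9 genes on a log axis, with 1 point per library (blue WT, red TG) and the mean and SD of 3 libraries in black. TG1 is the lowest point of every gene, and the groups lie apart for Cldn11, Omg, Mog and Opalin, with a gap of 0.0989 FPKM for Mog.

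Counted over the list, 0 of the 9 members had a lower level in TG mice at an adjusted p under 0.05 in limma, where 0.00477% of all genes tested did. At an unadjusted p under 0.05 there were 3 of 9 (Mal, Opalin and Omg), or 33.3%, against 2.78% of all genes tested. In limma-voom on the recovered reads there were 5 at an unadjusted p under 0.05 and 0 at an adjusted p under 0.05. Of all 20952 genes tested, 485 were lower at an unadjusted p under 0.05 in limma-voom. The groups did not overlap for 4 of 9 members, or 44.4%, against 5.71% of all genes tested with TG below WT. The 9 genes come from the same 6 libraries and moved together, so these counts are not 9 separate observations. Without TG1, 1 member (Opalin) had an unadjusted p under 0.05, as 375 of the 20993 genes then tested did with TG lower. Without TG1 and TG2 a single TG library is left, whose spread is taken from the WT libraries, and the log2 fold changes were -0.54 for Opalin, -0.26 for Omg and -0.09 for the median of the members. With the mean level of 10 choroid plexus genes as a covariate, 0 members had an unadjusted p under 0.05, and the log2 fold changes were -0.74 for Opalin, -0.26 for Omg, -0.21 for Mal and -0.21 for the median of the members. In that fit 370 of all 20952 genes tested were lower at an unadjusted p under 0.05. This covariate was high in TG1 and TG2 alone, so it moved partly with the genotype and the fit could detect less. When each library was rescaled to the same summed FPKM, 2 members (Opalin and Omg) did not overlap. The median log2 fold change of the members was -0.28, against -0.0020 over all genes tested.

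**Figure D2:**
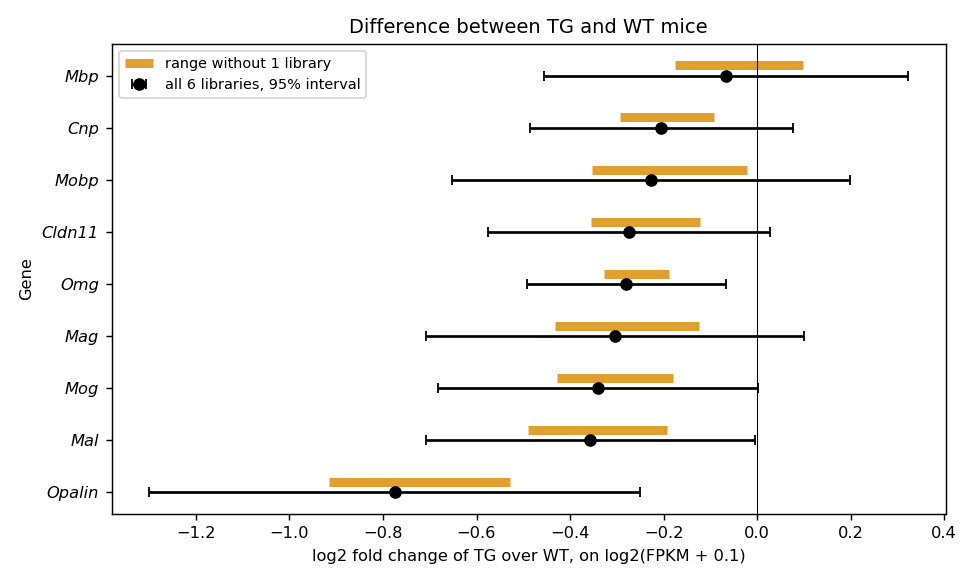
Log2 fold change of TG over WT for each gene (black points, bars are 95% intervals from limma) and the range when 1 library is left out (yellow bars). The intervals of Opalin, Mal and Omg do not reach 0, and the yellow bar of Mbp crosses it.

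Across the libraries the members followed a common course. On the log2(FPKM + 0.1) scale, with each gene set against its own mean in WT mice, the median of the 9 stood at 0.12, 0.06 and -0.16 in WT mice against -0.64, -0.19 and -0.09 in TG mice. TG1 stood apart from the other TG libraries, and TG3 lay above WT3. In TG1 the FPKM was between 40.5% of the WT mean for Opalin and 78.5% for Omg. In the mean of TG2 and TG3 it was 106% of the WT mean for Mbp and 98.1% for Mobp, and between 83.9% and 93.6% for 6 others, with Opalin at 68.4%. The summed FPKM of the 9 genes stood at 725, 698 and 606 in WT mice against 474, 633 and 679 in TG mice, so WT3 lay below TG2 and TG3.

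**Figure D3:**
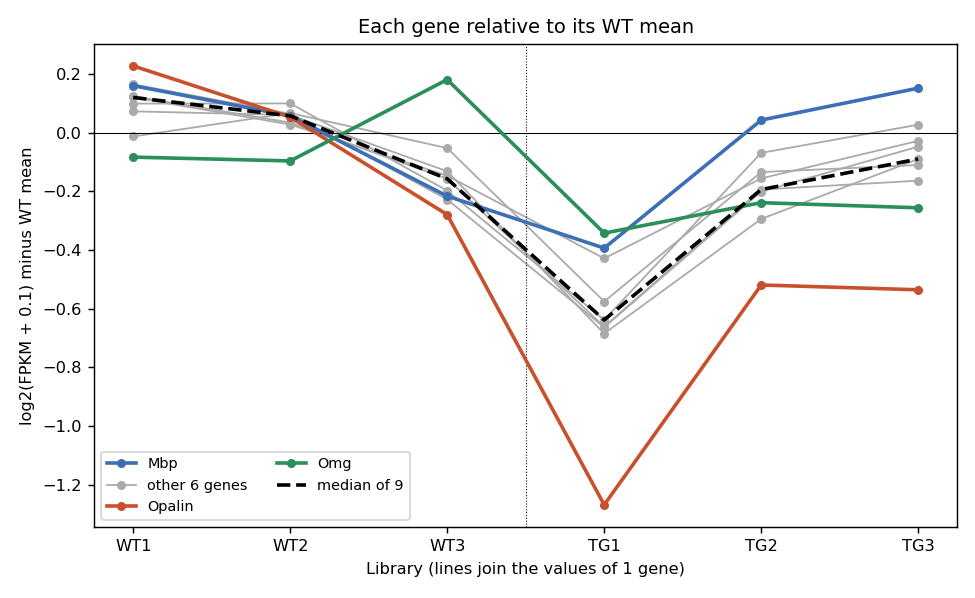
Each gene on the log2(FPKM + 0.1) scale relative to its WT mean, with libraries on the horizontal axis and the median of the 9 genes dashed. Opalin lies below the others in the TG libraries, reaching -1.27 in TG1, Mbp lies above the median in them, and Omg is alone in being above its WT mean in WT3.

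Within a library, the members can be compared with each other without regard to how the libraries were scaled. Mbp made up 39.8%, 38.5% and 36.6% of the summed FPKM of the 9 genes in WT mice against 41.4%, 42.0% and 42.2% in TG mice, so its share was higher in every TG library than in any WT library. Opalin made up 1.74%, 1.60% and 1.46% against 0.929%, 1.18% and 1.09%. The share of Mal was 10.6% to 11.0% in WT mice and 9.40% to 10.1% in TG mice. For Mog, the share was 3.63% to 3.71% in WT mice and 3.24% to 3.41% in TG mice. The groups overlapped in the shares of Mag, Mobp, Cnp, Cldn11 and Omg. Shares of a sum depend on each other, and the sum is mostly set by Mbp and Mobp. Each gene was therefore also set against the median of the other 8 on the log2 scale. Every gene was first taken relative to its own WT mean, so the mean of the WT values lies near 0 by construction. Single WT values need not, and for Omg they ran from -0.21 to 0.36. By this measure Opalin was 0.12, -0.01 and -0.13 from the others in WT mice against -0.66, -0.34 and -0.47 in TG mice. The difference between the groups was -0.49 (two-sided exact permutation, p = 0.1). With 3 against 3 libraries an exact permutation p cannot be smaller. Mbp, again relative to its own WT mean, was at most 0.05 above the others in WT mice and 0.26, 0.24 and 0.25 above them in TG mice. Its difference of 0.25 had the same exact permutation p of 0.1. Of the 9 genes compared in this way, Cnp was the third whose groups lay apart, with a difference of 0.11 (TG2 at 0.04 and WT3 at 0.03 were the nearest). How often the groups of other genes lie apart by this measure was not computed. Opalin and Mbp had the lowest and the highest difference of the 9, and the centring on the WT mean was not redone in the permutations. For Omg the difference was 0.02 (exact permutation test, p = 0.9). For Mal it was -0.07 and for Mog -0.06 (exact permutation test, p = 0.2 for each), and the groups of both overlapped. The FPKM of Opalin per 100 of Mbp, a ratio chosen after the values were seen, was 4.37, 4.15 and 3.98 in WT mice against 2.24, 2.81 and 2.58 in TG mice. TG1 was the lowest in this ratio, and TG2 and TG3 were also below every WT library.

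**Figure D4:**
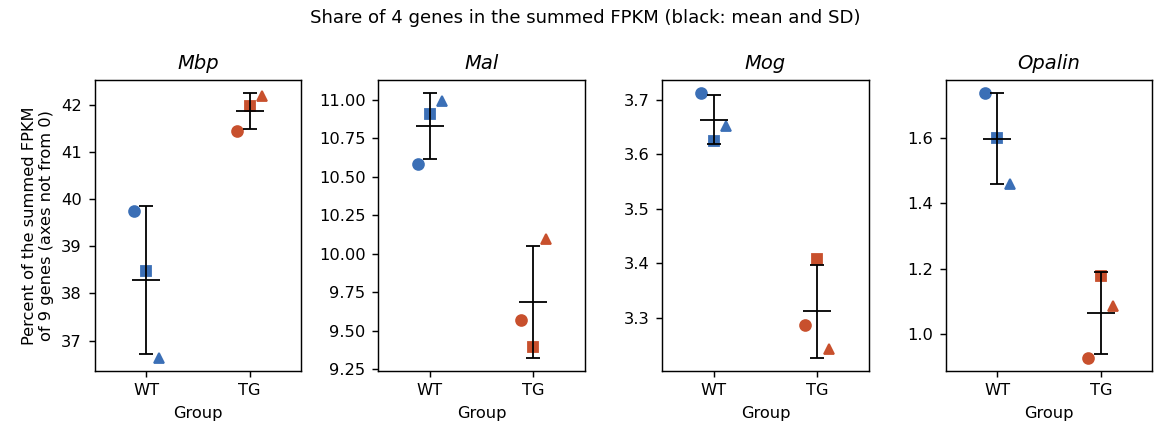
Share of Mbp, Mal, Mog and Opalin in the summed FPKM of the 9 genes, in percent, with 1 point per library and the mean and SD of 3 libraries in black (axes do not start at 0). The share of Mbp is higher in the 3 TG libraries, and the shares of the other 3 genes are lower in them. Only genes whose groups lie apart in this share are shown, and the groups of the members not shown overlap.

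Outside the members, 21 other genes of mature oligodendrocytes and myelin had a median log2 fold change of -0.22, with 2 genes lower at an unadjusted p under 0.05 and 0 at an adjusted p under 0.05 in limma. The 2 are 9.52% of the list, against 2.78% of all genes tested, and 19 of the 21 lay below 0. The medians of these 21 genes relative to the WT mean were 0.13, 0.08 and -0.18 in WT mice against -0.49, -0.13 and -0.03 in TG mice, with TG1 again the lowest. Tspan2, a tetraspanin of myelin and the most abundant of these, stood at 23.0, 21.2 and 19.1 FPKM against 14.5, 17.6 and 18.4. The other gene with such a p was Ppp1r14a. Of 10 transcription factors of the lineage, 2 had an unadjusted p under 0.05 with lower TG levels (Nkx6-2 and Olig2), or 20%, against 2.78% of all genes tested. The groups of Nkx6-2 overlapped. Of the 10 factors 7 lay below 0, and the median log2 fold change was -0.15. Olig1 was the most abundant of them, at 51.7, 57.2 and 64.2 FPKM against 51.6, 51.6 and 51.8. The 12 genes of precursors and newly formed oligodendrocytes had a median of -0.01, with 7 below 0. Among these, Bcas1 stood at 30.1, 26.8 and 22.9 FPKM against 18.9, 29.7 and 32.3, which is again lowest in TG1. Gpr17, a receptor of newly formed oligodendrocytes and the gene with the smallest p of that list, stood at 6.97, 5.15 and 4.41 FPKM against 7.42, 7.69 and 6.80 (limma, unadjusted p = 0.0332, adjusted p = 0.786).

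Mag and Omg act on axons through the Nogo receptor complex, and 8 genes of this group were measured. None had an unadjusted p under 0.05, 2 of 8 lay below 0, and the median log2 fold change was 0.09. Rtn4, which encodes the inhibitor Nogo and was the most abundant, stood at 82.0, 77.8 and 88.5 FPKM against 77.4, 78.0 and 79.9. Ngfr, the gene with the smallest p, stood at 0.910, 0.521 and 0.573 FPKM against 1.05, 0.745 and 1.21, with overlapping groups. In TG1, markers of other cells of the hippocampus were nearer to the WT mean than the members were. The medians of TG1 to TG3 were -0.05, 0.02 and 0.04 for 10 astrocyte genes, -0.23, 0.22 and 0.24 for 10 microglia genes and 0.12, -0.09 and -0.02 for 10 neuron genes. Of these lists 1 microglia gene (Csf1r) was higher and 1 neuron gene (Calb1) was lower at an unadjusted p under 0.05. Over all 20952 genes tested, 656 were higher and 582 lower at this threshold. Thalamus genes, which would mark tissue next to the hippocampus, had medians of 0.14, 0.04 and 0.26 in TG1 to TG3 and 0 of 10 had an unadjusted p under 0.05. The summed FPKM of the thalamus genes was 38.9 to 48.0 in the WT libraries and 38.6 to 41.5 in the TG libraries. This sum leans on its most abundant gene, Calb2, at 24.2, 18.5 and 21.3 FPKM in WT mice against 19.1, 17.5 and 12.4 in TG mice. Only 2 of the 10 thalamus genes lay below 0, and their median was highest in TG3.

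**Figure D5:**
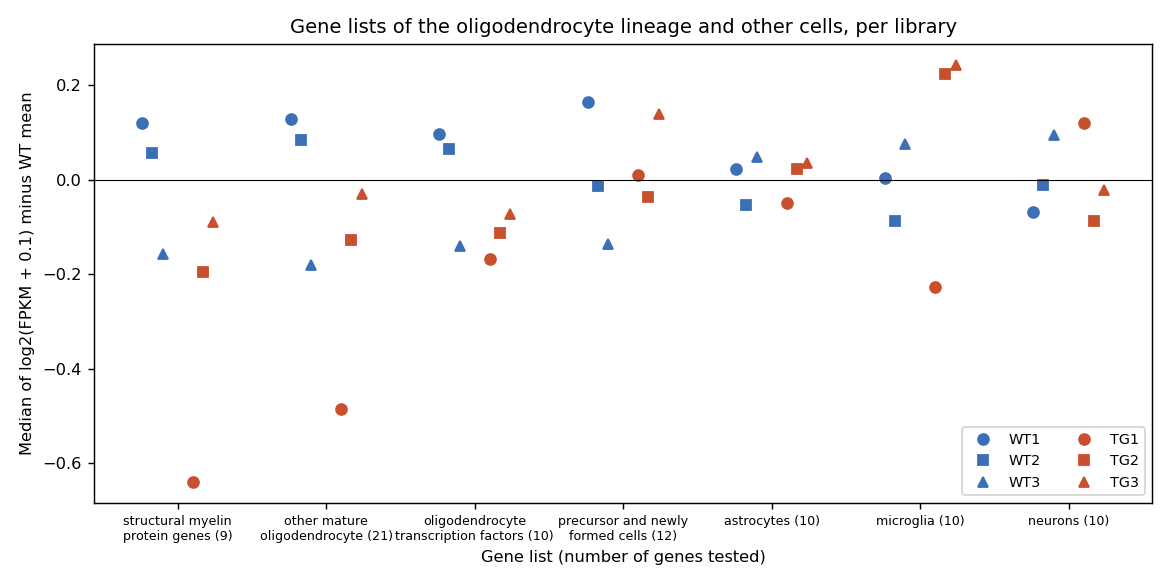
Median of each gene list named on the horizontal axis, on the log2(FPKM + 0.1) scale relative to the WT mean, with 1 point per library (blue WT, red TG). TG1 is low for the members (-0.64) and the other mature oligodendrocyte genes (-0.49), and is between -0.23 and 0.12 for the transcription factor, precursor, astrocyte, microglia and neuron lists.

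Other genes whose course over the 6 libraries was nearest to the median of the members were ranked among 11908 other protein-coding genes whose mean FPKM reached 1. Likeness was the root mean square distance on the log2 scale. The nearest of those reported here was Gjc3, a gap junction gene, at a distance of 0.0252, at 11.5, 11.0 and 9.64 FPKM in WT mice against 6.86, 9.18 and 9.67 in TG mice. Tspan2 followed at 0.0669, the lysosomal regulator Tfeb at 0.0670 and Ermn, a cytoskeletal protein of oligodendrocytes, at 0.0707. The distance of the members themselves to their median was 0.0330 for Mog and 0.0398 for Mag, and it was largest for Opalin at 0.348, Omg at 0.222 and Mbp at 0.173. Each member was itself part of that median, which brings its distance down, unlike that of the other genes. In this ranking 7715 of the other genes were nearer to the median of the members than Opalin, 895 were nearer than Omg and 194 were nearer than Mbp. This distance counts the size of a change as well as its course. Opalin lay on the same side of its WT mean as the median in every library. It lay further out in the TG libraries, at -1.27, -0.52 and -0.54, so its count does not show a different course.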

How the data were processed

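Hippocampal RNA was sequenced in 3 WT and 3 TG libraries. The authors counted reads per gene with HTSeq and deposited FPKM, with 1 column per library (the submitters' processing notes name GRCm38 and mm10). The aligner and the strand setting are not given in the sources used here, and the paper and the labels name different RNA and library kits. From the deposited FPKM and gene lengths the reads were recovered as whole numbers for 100% of the values (tolerance 0.05 reads). Genes averaging 0.1 FPKM or more entered limma 3.58.1 (R 4.3.3) on log2(FPKM + 0.1) with a variance trend and no block, with Benjamini-Hochberg adjustment over all genes tested. A fold change on this scale understates that of low genes. The alternatives concerned pseudocount, filter, scaling, variance model, gene type, voom, a choroid plexus covariate, a replicate block and each library left out. An alternative without TG1 and TG2 was added after seeing the data. The fit was tested on simulated data. Of the member transcripts, at most 3.01% of the stretches of 50 bases (Cnp) occur in other genes. Motifs were searched in Python 3.11.15.

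The members, gene lists and tests were chosen with earlier results of these data known. Genes were named by this rule: all 9 members, the most abundant gene and the gene with the smallest p of each list, and the 5 genes nearest to the members' median course. Of these, 1 gene is not reported here. Sox10 and Myrf, and the genes named for counts of 5 or fewer, were picked once their values were known. The most abundant and smallest-p genes not named above were Drp2 (7.02 FPKM in WT mice, 7.47 in TG mice) and Egr2 (1.21 and 1.89) of the Schwann cell list, Ttr (63.1 and 1644) and Kcnj13 (0.350 and 6.18) of the choroid plexus, Aldoc (274 and 255) and S100b (51.1 and 44.9) of astrocytes, C1qa (47.5 and 51.3) of microglia, Snap25 (271 and 248) of neurons, and Cldn5 (26.3 and 26.6) and Flt1 (5.39 and 6.38) of the endothelial and meningeal list, whose median log2 fold change was 0.06. With 3 libraries a group, the p-values measure the spread between these libraries, and intervals on reads cover counting error only.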

Additional observations from a re-analysis of the deposited data

How the results depend on the processing

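Over 18 alternatives, 157 of 162 recomputed fold changes of single members kept their direction, and none passed an adjusted p under 0.05 in limma or limma-voom (smallest 0.657). The 5 reversals were 4 of Mbp, to 0.0174 with the choroid plexus covariate, 0.01 without WT1, 0.10 without TG1 and 0.15 without TG1 and TG2, and 1 of Mobp, to 0.0267 without TG1 and TG2. The log2 fold change of Mbp ranged from -0.18 (without TG3) to 0.10 when 1 library was left out. The number of members lower at an unadjusted p under 0.05, which was 3, became 5 in limma-voom. With the covariate, which was high in TG1 and TG2 alone, it became 0 (median -0.21, with 370 of all genes lower) in a fit that could detect less. When 1 library was left out, this number ranged from 1 (without TG1, with 375 of 20993 genes lower) to 6 (without TG3, with 472 of 20954 genes lower). It was 0 without TG1 and TG2, where 1 TG library remains and is assumed to vary like the WT libraries, so this 0 says nothing about stability. The number whose groups did not overlap, which was 4, became 2 with quantile normalization and 2 when every library was rescaled to the same sum. With 1 library left out it was at most 8 (without WT3). Leaving out a library cannot make separate groups overlap, so this number could not fall below 4 there. The share of all genes whose groups lie apart was not computed for these settings. The median log2 fold change of the members moved by less than 0.23, the SD between libraries. It was -0.12 without TG1, -0.36 without TG3 and -0.09 without TG1 and TG2. This SD includes TG1 and is close in size to the median of -0.28 itself, so moving by less than it does not show stability. With the replicate block the count at an unadjusted p under 0.05 was 2 (610 over all genes tested), with an unchanged median of -0.28. Same-numbered libraries had correlations of their deviations from the group means of 0.0125, 0.0434 and 0.0031. Libraries with different numbers had correlations from -0.0274 to 0.0159. Deviations from a group mean constrain each other, so these values cannot decide whether the numbers pair the samples. The cause of these changes was not tested.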
